A study of Mus musculus with 6 samples.

Results

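Glutathione transferases, peroxidases and redox enzymes were examined in the larger proximal airways of mice in which Scgb1a1-Cre acts on floxed alleles of the forkhead factor genes Foxp1 and Foxp4. The genes were chosen by symbol: those that begin with Gsta, Gstk, Gstm, Gsto, Gstp, Gstt, Gstz, Mgst, Gpx or Prdx, and 14 single genes of glutathione supply, thioredoxin and oxidant removal. Only array rows that the platform annotation assigns to exactly 1 gene were taken, and the row with the highest mean stood for a gene with several. This gave 48 genes among 19938 measured: 22 transferases, 8 peroxidases of the Gpx family, 5 Prdx genes, 4 genes of glutathione synthesis and recycling, 3 superoxide dismutases, 3 thioredoxin genes, and Cat, Hmox1 and Nqo1. Ggt1, Prdx5, Prdx6, Gsta1, Gsta2 and Gstp2 were not analysed here as single genes.

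Glutathione is a cysteine-containing tripeptide that cells make in 2 enzymatic steps and keep in its reduced form. Transferases attach it to reactive chemicals, peroxidases use it to remove peroxides, and thioredoxin and peroxiredoxins form a parallel system. Many of these genes are induced through Nrf2, a factor released from Keap1 by oxidants and electrophiles. Club cells, the secretory cells of the small and large airways of the mouse, are known as a main site of such detoxification in the lung.

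All 6 samples came from mice of mixed C57BL/6 and 129X1 background at 9 weeks of age, and each was hybridised to 1 Affymetrix array. The 3 controls carried the Scgb1a1-Cre driver alone, and the 3 mutants carried the same driver with floxed alleles of both genes (Scgb1a1-Cre:Foxp1flox/flox:Foxp4flox/flox). Scgb1a1 is a club cell gene, so cells of the dissected wall that neither expressed the driver nor descend from cells that did keep both genes. Which of the ciliated, basal and non-epithelial cells these are was not examined. Whether the samples of a group are separate mice is not stated in the labels, so the p-values cover the variation among these samples only, and part of it may be technical.

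The tissue carried airway markers on every array, with log2 values of 12.13 to 12.58 for Scgb1a1 and of 8.27 to 9.10 for Foxj1, the ciliated cell regulator. Foxp1 averaged 9.53 ± 0.10 (SD, n = 3) in controls and 9.30 ± 0.05 in mutants, and Foxp4 averaged 8.91 ± 0.13 and 8.22 ± 0.40. Neither passed limma's test (adjusted p = 0.444 and 0.339), although no mutant array reached a control array for either gene. Control 1 stood apart from its group, with a mean correlation across genes of 0.975 with the other controls and 0.981 with the mutants. The 7 measured B and plasma cell markers averaged 6.67 in control 1 against 9.68 and 9.57 in controls 2 and 3, and 6.07, 8.06 and 6.36 in the mutants, and all 7 had a lower mean in mutants. The 8 alveolar type 2 markers were all higher on average in mutants, at 11.08 to 11.22 against 10.63 to 10.84. Of these 8, 6 had groups that did not overlap, where 15.0% of all genes did. Cardiac muscle markers ranged from 8.87 to 11.32 in controls and from 8.34 to 10.92 in mutants, and adipocyte markers from 6.65 to 8.92 and from 7.01 to 7.97. Means of the 10 club cell markers lay at 11.51 to 11.59 in controls and 11.65 to 11.71 in mutants. For the 12 ciliated cell markers they were 9.45 to 9.80 and 8.91 to 9.70, and for the 8 basal cell markers 6.35 to 7.30 and 6.62 to 7.70. Macrophage markers gave 7.63 to 7.93 in controls and 7.46 to 8.34 in mutants, and fibroblast and matrix markers 9.13 to 9.35 and 9.04 to 9.39. Smooth muscle markers gave 10.61 to 10.997 and 10.55 to 10.996, and red cell markers 5.82 to 6.81 and 5.85 to 6.19. The part that these markers play in the results that follow was not tested, except where a value is given beside a gene.

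In mutant airways Gclc, the catalytic subunit of the enzyme that starts glutathione synthesis, rose 2.10-fold, and the mu class transferase gene Gstm6 fell 3.28-fold. These were the only 2 of the 48 genes that passed limma's test at an adjusted p under 0.05, 1 in each direction, where 0.266% of all genes passed (0.236% as higher and 0.0301% as lower). In 17 of the 48 genes, or 35.4%, no mutant array overlapped a control array, 10 being higher and 7 lower in mutants. The same held for 15.0% of all genes, and for 17.1% of the genes outside the lowest 40% by mean, where 44 of the 48 lay. An unadjusted limma p under 0.05 was reached by 13 of the 48 (27.1%), by 10.1% of all genes and by 13.7% of the genes outside the lowest 40% by mean. The family as a whole did not lean to either side, with 23 genes above 0 and 25 below, and a median log2 difference of -0.0045 against 0.016 for all genes. In size, 9 of the 48 (18.8%) differed by at least 0.5 log2 units, against 6.16% of all genes and 8.50% of genes outside the lowest 40% by mean.

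**Figure D1:**
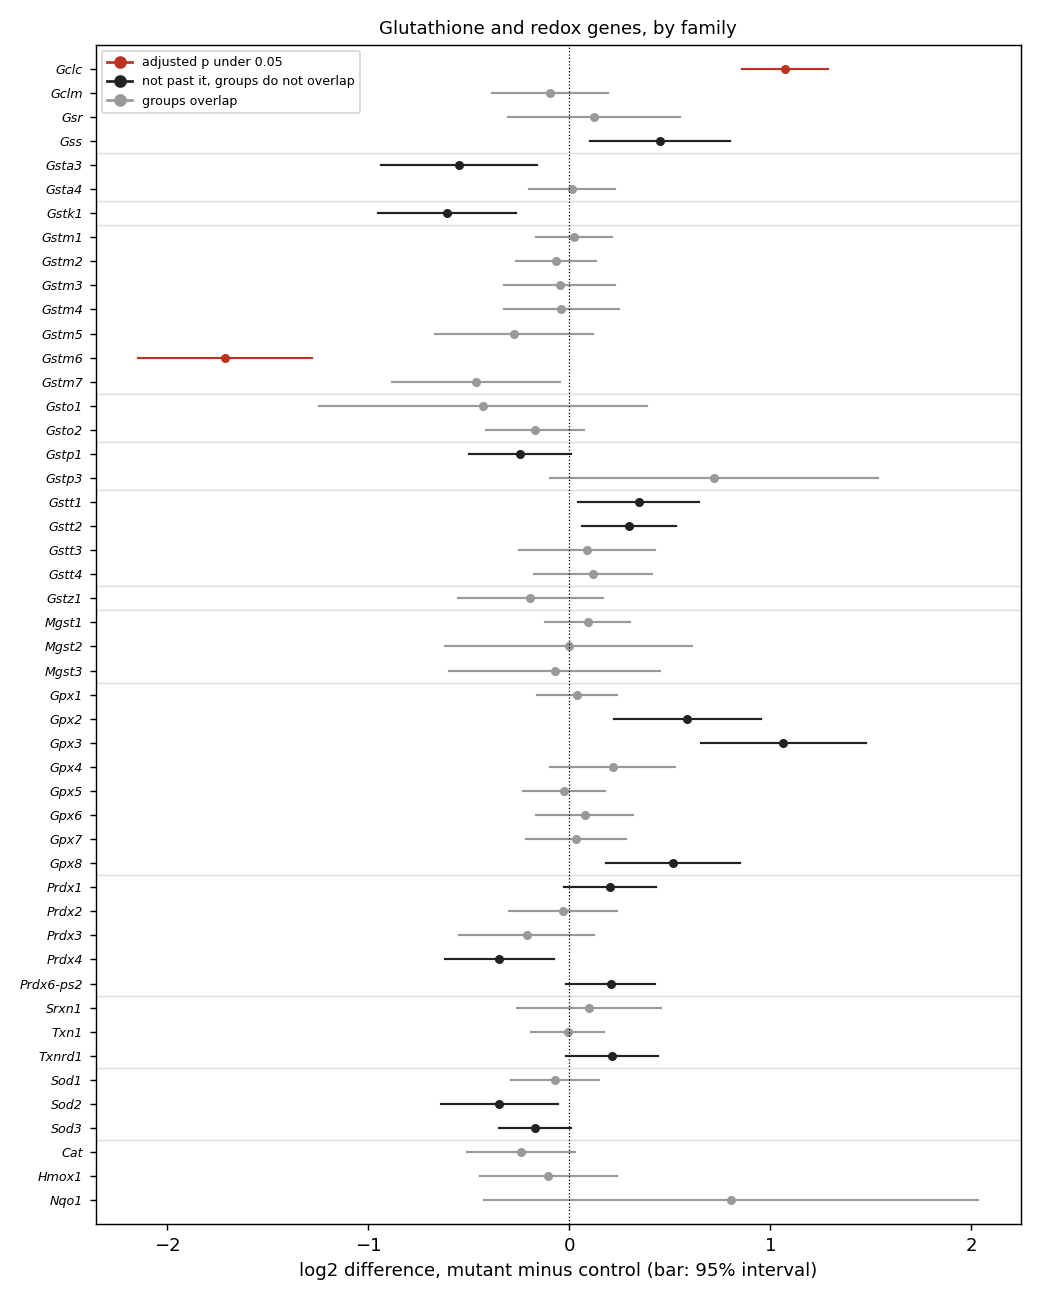
Log2 difference between mutant and control airways (mutant minus control, x axis) for the 48 genes, ordered by family (y axis), with points for limma's estimates and bars for 95% intervals over 3 arrays per group. Gclc at 1.07 and Gstm6 at -1.71 passed the adjusted threshold, 15 further genes had groups that did not overlap, and the rest had groups that overlapped.

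Glutathione is made by glutamate-cysteine ligase, which consists of the catalytic subunit Gclc and the modifier subunit Gclm, and then by glutathione synthetase, Gss. Gclc (probe set 10587266) read 9.63, 9.50 and 9.66 on the control arrays and 10.56, 10.70 and 10.74 on the mutant arrays. The 2 groups lay about 1 unit apart, each with a narrow spread, and control 1, although it lay near the mutants across the transcriptome, read like the other controls. The log2 difference was 1.07 (SE 0.089, 95% interval 0.86 to 1.29, limma adjusted p = 0.0143), and the exact two-sided permutation test gave p = 0.1, the smallest that 3 against 3 arrays allow. In bulk tissue, more cells that express a gene and more RNA per cell cannot be told apart.

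The call on Gclc rested on having all arrays. Leaving out control 2 gave an adjusted p of 0.0735, and leaving out control 3 gave 0.0922. With mutant 1, 2 or 3 removed it became 0.0568, 0.0559 or 0.0986, whereas the gene still passed with control 1 removed (0.0160). The difference itself stayed between 1.03 and 1.13 in all 14 alternative settings, and over the 13 settings with several arrays per group the adjusted p ranged from 0.0049 to 0.161.

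The partner subunit showed no such difference. Gclm read 9.63, 9.63 and 9.29 in controls and 9.45, 9.31 and 9.49 in mutants. The groups overlapped, and the 95% interval of the log2 difference (-0.38 to 0.19) did not reach the change of Gclc. Gss read 7.66, 8.01 and 8.18 in controls and 8.37, 8.32 and 8.52 in mutants, so all mutants were above all controls, by 0.45 on average (SE 0.15), without passing (adjusted p = 0.395). Gsr, the reductase that restores oxidised glutathione, read 9.20, 9.50 and 9.21 against 9.57, 9.06 and 9.65, with mutant 2 below the controls and the other mutants above them (log2 difference 0.12, SE 0.18).

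**Figure D2:**
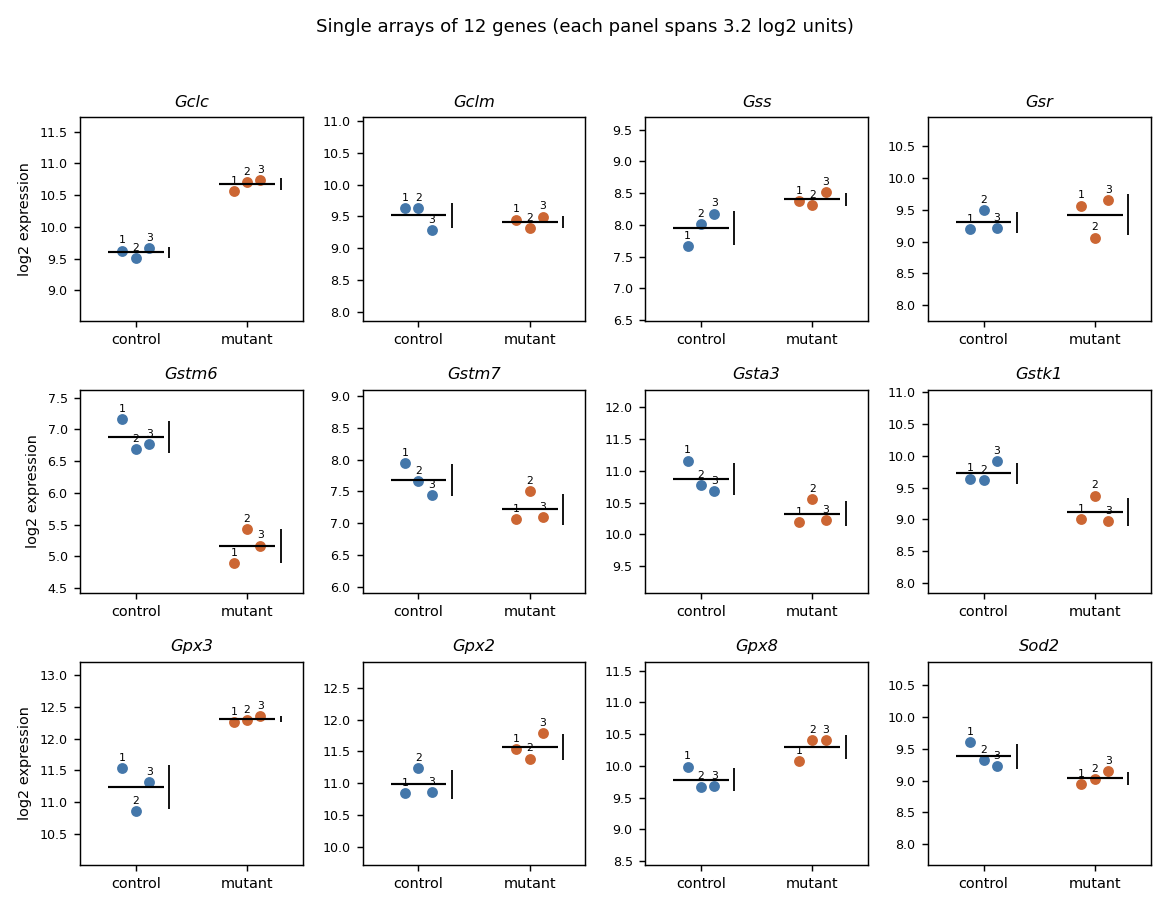
Log2 expression (y axis) of 12 genes on the 3 control and 3 mutant arrays (x axis), with points numbered by sample, a horizontal line at the group mean and a vertical bar of 1 SD to each side. The groups are far apart for Gclc, Gstm6 and Gpx3, close but not overlapping for Gss, Gsta3, Gstk1, Gpx2, Gpx8 and Sod2, and overlapping for Gclm, Gsr and Gstm7.

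The mu class transferases are encoded by 7 neighbouring genes on chromosome 3, in the order Gstm5, Gstm7, Gstm6, Gstm3, Gstm2, Gstm1 and Gstm4 in the reference annotation. Gstm6 (probe set 10501208) read 7.16, 6.70 and 6.77 in controls and 4.89, 5.42 and 5.17 in mutants. Every mutant was at least 1 unit below every control, and the mutant values approached the lower quartile of all probe sets (4.42 to 4.50 by array). No detection calls were used, so the 3.28-fold fall is as measured, on a scale that compresses differences of dim probe sets. The log2 difference was -1.71 (SE 0.18, 95% interval -2.15 to -1.28, limma adjusted p = 0.0246; exact permutation p = 0.1). With control 2 or 3 removed its adjusted p was 0.1002 or 0.129, and with mutant 1, 2 or 3 removed 0.105, 0.0526 or 0.141. It still passed with control 1 removed (0.0182). The difference stayed between -2.00 and -1.57 over all 14 settings, and the adjusted p lay between 0.0055 and 0.242 over the 13 with several arrays per group.

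The genes beside Gstm6 did not share a difference of this size. Gstm7, its neighbour on one side, read 7.95, 7.67 and 7.44 in controls and 7.06, 7.50 and 7.10 in mutants, a difference of -0.46 (SE 0.17, adjusted p = 0.454) in which mutant 2 overlapped the controls. Gstm5, next to Gstm7, differed by -0.27 (SE 0.16) and also overlapped. Gstm3, the neighbour on the other side, has 2 rows. Its row of higher mean (probe set 10362511) read 8.99, 8.98 and 8.97 in controls and 8.71, 9.00 and 9.09 in mutants (log2 difference -0.05, SE 0.11). Gstm2, Gstm1 and Gstm4 had differences of -0.07, 0.02 and -0.04, and their 95% intervals lay within -0.33 and 0.25. Mu class genes resemble each other in sequence, and it was not examined how the array's probes divide between them, so the separate values of these neighbours are uncertain. A second row of Gstm3 gave the same difference of -0.05.

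**Figure D3:**
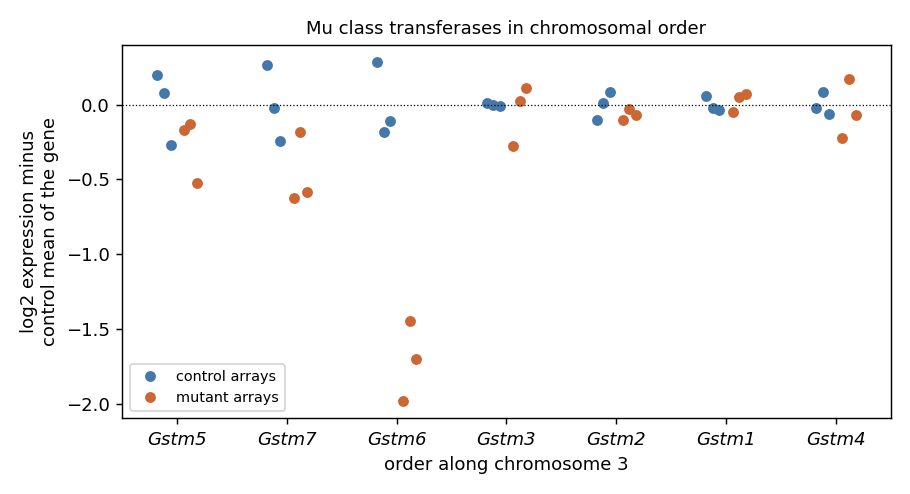
Log2 expression of each array minus the control mean of the gene (y axis) for the 7 mu class transferase genes in their order along chromosome 3 (x axis), with 1 point for each of 3 control and 3 mutant arrays. The mutant points of Gstm6 lie at -1.98 to -1.45, whereas those of Gstm3, Gstm2, Gstm1 and Gstm4 lie between -0.28 and 0.17. Gstm3 is drawn from its row of higher mean (probe set 10362511).

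Promoter sequence was available for Gstm6 but not for Gclc in the RefSeq-derived table (GRCm38.p6), which gives 250 bases before and 50 after annotated starts and matched 41 of the 48 genes with 55 windows. The 100 bases before the outermost of the 3 annotated Gstm6 starts are shown because this gene had the lowest difference of the family; they lie at chr3:107953467-107953566 on the minus strand, with nothing capitalised because neither motif searched was found there.
Gstm6: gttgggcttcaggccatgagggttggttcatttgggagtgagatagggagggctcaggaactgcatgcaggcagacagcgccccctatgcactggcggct

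Windows were searched on both strands for the core of the antioxidant response element to which Nrf2 binds, TGACNNNGC, and for a forkhead core, TGTTTAC. The first was held by 9 of the 55 windows (16.4%), against 12.4% of all 32851 windows, and the second by 0 of 55, against 3.65% of all. None of the 3 Gstm6 windows held either. The Nrf2 motif also overlaps sites read by AP-1 factors, and a match is only a match of letters. The matches in 5 genes are shown with 10 flanking bases on each side, read in the direction of the gene, with the motif in capitals, so that they can be set beside the differences in expression.
Gclm: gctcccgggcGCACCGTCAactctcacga
Gsta3: aactcaggcaTGACATTGCatttttcttc
Gstm7: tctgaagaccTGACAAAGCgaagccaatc
Prdx1: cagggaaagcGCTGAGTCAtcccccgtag
Txnrd1: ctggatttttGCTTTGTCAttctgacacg

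These lie at chr3:122245413-122245441 (plus strand), chr1:21240454-21240482 (plus), chr3:107931725-107931753 (minus), chr4:116685456-116685484 (plus) and chr10:82859104-82859132 (plus), and the capitals of Gclm, Prdx1 and Txnrd1 show the motif on the opposite strand. The log2 differences of these 5 genes were -0.10, -0.55, -0.46, 0.20 and 0.21, so genes with a match stood on both sides of 0. None of them passed, but of the members that did pass, Gclc had no window and Gstm6 had no match. A match therefore could not be set against the calls, and whether it goes with a difference was not tested. The other 4 genes with a match, Gstm5, Mgst1, Sod1 and Srxn1, lay between -0.27 and 0.10.

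Among the other transferases, which attach glutathione to different kinds of substrates, several differed between the groups without passing. Gstk1, the kappa class enzyme of mitochondria and peroxisomes, read 9.64, 9.62 and 9.91 in controls and 9.00, 9.38 and 8.98 in mutants. All mutants were lower, by 0.61 on average (SE 0.14, adjusted p = 0.230), and the gene passed only with array weights (adjusted p = 0.0383). Gsta3, an alpha class enzyme that clears aflatoxin epoxide in the mouse, read 11.16, 10.78 and 10.68 in controls and 10.20, 10.56 and 10.22 in mutants. Control 1 was the highest and mutant 2 the nearest to the controls, and the difference of -0.55 (SE 0.16) did not pass (adjusted p = 0.345). Gsta4, the alpha class enzyme that takes up products of lipid peroxidation, differed by 0.01, with a 95% interval of -0.20 to 0.23.

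Gstp1, the pi class enzyme, read 12.01, 12.08 and 11.94 in controls and 11.80, 11.60 and 11.91 in mutants, so the groups were separated by a margin smaller than the spread within each (log2 difference -0.24, SE 0.11, adjusted p = 0.515). With arrays centred on their medians the groups of Gstp1 overlapped. Gstp3, its neighbour, went the other way on average, with 8.45, 8.50 and 7.82 against 9.19, 8.27 and 9.47, but mutant 2 lay within the controls (0.72, SE 0.34). The omega class gene Gsto1 read 10.97, 10.81 and 10.55 in controls and 10.77, 9.54 and 10.74 in mutants. Its mean difference was -0.43 (SE 0.34), and mutant 2 alone lay below all controls. This was the array on which the 12 ciliated cell markers were also lowest (mean 8.91, against 9.45 to 9.80 on the other 5 arrays), and the part of ciliated cells in this value was not tested. Gsto2 differed by -0.17 and Gstz1, which acts in tyrosine breakdown, by -0.19, and the groups of each overlapped.

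The 4 theta class genes, which also lie side by side, had small differences that were all above 0, also under both other scalings, although Gstt3 turned to -0.05 without control 3. Gstt1 read 8.46, 8.09 and 8.49 in controls and 8.62, 8.74 and 8.72 in mutants, a log2 difference of 0.34 (SE 0.13, adjusted p = 0.439). Gstt2 read 8.03, 8.15 and 8.22 against 8.33, 8.42 and 8.56 (0.30, SE 0.097, adjusted p = 0.395). Neither pair of groups overlapped, but neither gene passed, and Gstt3 (0.09) and Gstt4 (0.12) had groups that overlapped. Of the microsomal transferases, Mgst1 read 11.71, 11.87 and 11.83 against 11.88, 11.82 and 11.99, a difference of 0.09 with a 95% interval of -0.12 to 0.30. Mgst2 and Mgst3 differed by -0.0017 and -0.07 and varied more, with SDs of 0.25 to 0.44 within groups.

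In the Gpx family, named for its glutathione peroxidases, 7 of 8 genes had a difference above 0, as did 10881 of all 19938 genes. The exception, Gpx5 (-0.03), moved to 0.008 when arrays were centred on their medians and to -0.05 with the normalisation repeated. Groups did not overlap for 3 of the 8 (15.0% of all genes did), but none passed. Gpx3, the secreted peroxidase, read 11.54, 10.86 and 11.32 in controls and 12.26, 12.29 and 12.36 in mutants. The mutants lay within 0.1 units of each other and all were above the controls, by 1.07 on average (2.09-fold, SE 0.17, 95% interval 0.65 to 1.48, adjusted p = 0.1004). This gene passed without control 1 (adjusted p = 0.0259), with array weights (0.0229) and with an intensity trend in the variance (0.0494), and its adjusted p ranged up to 0.423 over the settings with several arrays per group. Gpx2, known from the epithelium of the gut, read 10.84, 11.23 and 10.86 in controls and 11.53, 11.38 and 11.78 in mutants, a log2 difference of 0.59 (SE 0.15, adjusted p = 0.282). Gpx8, a membrane protein of the endoplasmic reticulum, read 9.99, 9.67 and 9.68 against 10.07, 10.41 and 10.41 (0.52, SE 0.14, adjusted p = 0.297). In both genes 1 control came close to the lowest mutant.

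The remaining peroxidases were near equal or overlapped. Gpx1, the common cytosolic form, read 11.22, 11.17 and 11.10 in controls and 11.15, 11.30 and 11.15 in mutants, and the 95% interval of its difference was -0.16 to 0.24. Gpx4, which reduces lipid peroxides in membranes, differed by 0.22 (SE 0.13), with mutant 2 below control 1, and its second row gave 0.22 as well. Gpx7, another enzyme of the endoplasmic reticulum, differed by 0.03. Gpx5 and Gpx6, known from the epididymis and the olfactory epithelium, read 3.91 to 4.11 and 4.19 to 4.51 over the 6 arrays, near or below the lower quartile of all probe sets, so their differences of -0.03 and 0.08 carry little information.

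The peroxiredoxins, which reduce peroxides with thioredoxin, divided. Prdx4, the form of the secretory pathway, read 9.68, 9.998 and 9.82 in controls and 9.50, 9.59 and 9.37 in mutants, a log2 difference of -0.35 (SE 0.11, adjusted p = 0.395). Prdx1, a cytosolic form, read 11.73, 11.92 and 11.91 against 11.96, 12.16 and 12.06 (0.20, SE 0.095, limma adjusted p = 0.551), and its second row gave 0.22. The groups of neither gene overlapped, and they differed in opposite directions. The mitochondrial Prdx3 differed by -0.21 (SE 0.14) with mutant 2 above all controls. Prdx2, a cytosolic form abundant in red cells, differed by -0.03, and its second row by 0.10. Prdx6-ps2, annotated as a pseudogene copy of Prdx6, differed by 0.21 (SE 0.092), and its row may share signal with its parent gene.

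In the thioredoxin system Txnrd1, the reductase that recharges thioredoxin, read 7.83, 7.83 and 7.61 in controls and 7.91, 7.99 and 8.01 in mutants. All mutants were higher, by 0.21 (SE 0.094, adjusted p = 0.531). Txn1, thioredoxin itself, read 11.75, 11.86 and 11.81 against 11.76, 11.84 and 11.80, and its 95% interval of -0.19 to 0.18 was among the narrowest of the family. Srxn1, which rescues over-oxidised peroxiredoxins, differed by 0.10 (SE 0.15) with overlapping groups.

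Superoxide dismutases turn superoxide into hydrogen peroxide, and all 3 had a difference below 0. Sod2, the mitochondrial form, read 9.60, 9.32 and 9.23 in controls and 8.94, 9.02 and 9.15 in mutants, a log2 difference of -0.35 (SE 0.12, adjusted p = 0.427). Sod3, the extracellular form, read 9.60, 9.61 and 9.55 against 9.47, 9.36 and 9.42 (-0.17, SE 0.074, adjusted p = 0.518). For both the groups were separate but the distance was small, whereas the cytosolic Sod1 overlapped (-0.07, 95% interval -0.29 to 0.15). Cat, the peroxisomal catalase, read 11.21, 11.38 and 11.19 in controls and 10.91, 11.21 and 10.94 in mutants, a difference of -0.24 (SE 0.11, adjusted p = 0.549) in which mutant 2 reached the controls.

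Nqo1 and Hmox1, commonly read as reporters of Nrf2, gave no call. Nqo1, a quinone reductase, read 7.15, 6.9997 and 5.34 in controls and 7.20, 7.83 and 6.86 in mutants. Its mean difference of 0.80 (SE 0.51) had a 95% interval of -0.43 to 2.03, and control 3 alone lay more than 1 unit below the other 5 arrays. Without control 3 the difference was 0.23 (adjusted p = 0.927). Hmox1, which breaks down haem, read 9.91, 9.98 and 9.49 against 9.65, 9.65 and 9.77 (-0.10, SE 0.14). Together with Gclm, Srxn1 and Txnrd1, the 5 genes gave differences of -0.10 to 0.80, and none of them passed. Of these 5, only Txnrd1 had groups that did not overlap, where 15.0% of all genes did. The 5 are not a full list of genes induced through Nrf2, and Gclc, which passed as higher (1.07), is not among them. The activity of Nrf2 was not tested.

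A list of 94 other genes that supply, use or control this system, with 91 measured, set the family in its pathway. None passed limma's test over all genes, while 18 (19.8%, against 10.1% of all genes) reached an unadjusted p under 0.05. Groups did not overlap for 21 (13 higher and 8 lower), which is 23.1% against 15.0% of all genes. The median log2 difference was -0.012. In the group for cysteine, NADPH and glutathione supply, Cth, which makes cysteine from cystathionine, read 6.09, 6.58 and 6.62 in controls and 7.53, 7.86 and 7.55 in mutants. All mutants were higher, by 1.22 (2.33-fold, SE 0.17, adjusted p = 0.0701), and Cth passed without control 1 (0.0267), with array weights (0.0229) and with the lowest 40% of genes left out (0.0483). Slc7a11, which imports cystine and was added here after its values were seen, read 4.93, 7.24 and 6.32 in controls and 5.09, 5.13 and 4.74 in mutants. Control 1 lay within the mutant range, and the log2 difference was -1.18 (SE 0.54, adjusted p = 0.543). Without control 1 it was -1.79, and Slc7a11 passed as lower in mutants (adjusted p = 0.0452). Its mutant values lay not far above the lower quartile of all probe sets (4.42 to 4.50 by array). Control 1 was also the lowest control for the B and plasma cell markers (6.67 against 9.68 and 9.57), and the part of those cells in this difference was not tested. Taldo1, an enzyme of the pentose phosphate pathway, read 9.70, 9.85 and 9.75 against 9.30, 9.28 and 9.49 (-0.41, SE 0.093, adjusted p = 0.216).

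Among genes for glutathione breakdown and export, 7 of 15 had groups that did not overlap, 5 higher and 2 lower, where 15.0% of all genes did. The transporter gene Abcc5 read 7.12, 7.14 and 7.10 in controls and 7.71, 7.51 and 7.85 in mutants, a log2 difference of 0.57 (SE 0.10, adjusted p = 0.134, and 0.0287 with array weights). Abcc1, which exports glutathione conjugates, was at 8.09, 8.17 and 7.84 against 7.69, 7.24 and 7.26 (-0.64, SE 0.15, adjusted p = 0.253). These 2 transporters of one family therefore stood in opposite directions. Among other detoxifying enzymes, Glo1, the glyoxalase that uses glutathione to clear methylglyoxal, read 9.32, 9.60 and 9.39 against 9.96, 10.05 and 9.84 (0.51, SE 0.11, adjusted p = 0.195), and the aldehyde oxidase Aox1 read 8.37, 8.48 and 8.20 against 8.77, 9.15 and 8.94 (0.60, SE 0.13, adjusted p = 0.201, and 0.0494 with array weights).

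Of the 10 genes for Nrf2 and its partners, 1 had groups that did not overlap, where 15.0% of all genes did. This was Bach2, a repressor that competes for Nrf2 sites and is best known from B cells, at 6.23, 6.97 and 6.71 in controls and 5.60, 6.05 and 5.74 in mutants, a log2 difference of -0.84 (SE 0.21, adjusted p = 0.270). Bach2 passed without control 1 (0.0441) and with array weights (0.0412). Bach1, its widely expressed relative, differed by 0.12 (SE 0.11). For enzymes that make reactive oxygen, Cyba read 9.15, 10.39 and 9.87 in controls and 9.03, 8.80 and 8.98 in mutants (-0.86, SE 0.29), and Ncf1 read 6.69, 8.13 and 7.61 against 6.56, 6.86 and 6.03 (-0.995, SE 0.39). Both encode parts of the oxidase of leukocytes. Without control 1 the difference of Cyba was -1.19, which passed (adjusted p = 0.0358). In all 3 genes control 1 was the lowest control, as it was for the B and plasma cell markers (6.67 against 9.57 and 9.68), and the part of those cells in the differences was not tested. In the thioredoxin and glutaredoxin group Glrx2 differed by 0.17 (SE 0.085) and Sesn1 by -0.29 (SE 0.16).

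**Figure D4:**
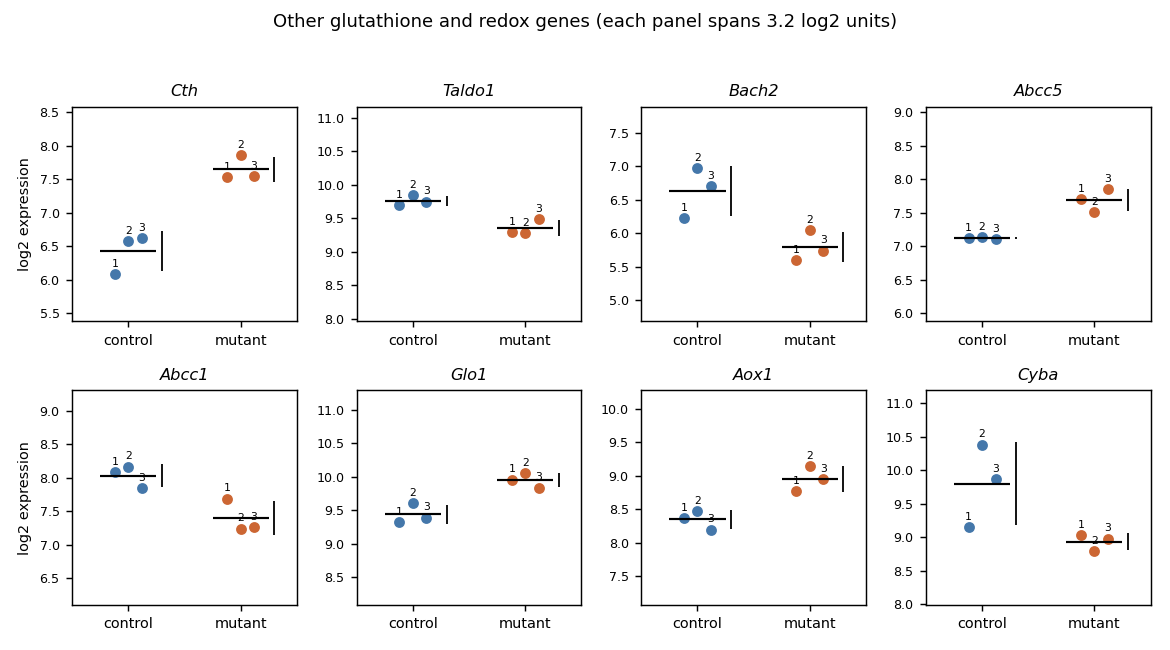
Log2 expression (y axis) of 8 genes of the wider glutathione and redox pathway on the 3 control and 3 mutant arrays (x axis), with points numbered by sample, a horizontal line at the group mean and a vertical bar of 1 SD to each side. Mutant arrays lie above the controls for Cth, Abcc5, Glo1 and Aox1 and below them for Taldo1, Bach2, Abcc1 and Cyba, and none of these genes passed the adjusted threshold with all 6 arrays weighted equally.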

How the data were processed

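The authors deposited log2 expression values for 35556 probe sets on each of 6 arrays. Oligo, RMA and limma are named, without versions, in the submitters' processing notes. RMA corrects background, makes array distributions alike and summarises probes, which compresses differences of dim probe sets. Neither detection calls nor scan dates were used, so batches were not tested. The number of arrays, 3 per group, limits the precision of every value. No arrays were duplicates, as the difference between any pair had an SD of 0.238 or more.

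The platform annotation gave exactly 1 gene for 21789 of 35556 rows, several for 1621 and none for 12146. All 48 members matched the reference gene table by identifier, and 4 of them had a second row. limma 3.58.1 (R 4.3.3; lmFit, eBayes, genotype as the only term, no filter, two-sided) was fitted to all 19938 genes, with Benjamini-Hochberg adjustment over all of them and a threshold of 0.05; standard errors and 95% intervals are limma's moderated ones. Folds were computed from log2 differences. Exact permutation tests were run for Gclc, Gstm6 and the targeted genes. The fit was tested on simulated data of the same design and 19938 genes, with 100 genes changed by 2-fold and 100 by 8-fold. Of these, 79% and 99% were called, with 17 false calls among the unchanged genes. The simulated noise was independent for each gene and array. It held no differences shared across an array, like that of control 1, so these rates need not hold for the real arrays.

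The members and lists were chosen with earlier results of these data known. Named genes were all that passed, the 12 further members of smallest p with groups that did not overlap, all Gstm genes, in the larger families the members of highest mean and smallest p, the singly listed genes with Gstp1 and Gsto1, and the 2 pathway genes of smallest p per group. Values of the remaining members were added after seeing the data. Values are quoted for all 11 cell type marker lists. Tables were joined with pandas 2.3.3 and drawn with matplotlib 3.10.9.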

Additional observations from a re-analysis of the deposited data

How the results depend on the processing

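The 14 settings left out each array in turn or controls 2 and 3 together, used an intensity trend, array weights or the replicate block, averaged the rows of a gene, dropped the lowest 40% of genes, centred arrays on their medians, or repeated the quantile normalisation. No member was called in the opposite direction in any of them. Directions changed for 18 of the 48 members in at least 1 setting, all among those whose groups overlapped, and for 0 of the 17 members whose groups did not overlap. The count of limma calls depended most on the arrays included. Over all genes it was 53 in the report, 82 with an intensity trend, 291 with array weights and 9 to 388 when single arrays were left out. The 388 arose without control 1. The array weights were 2.38 for control 3 and 2.19 for mutant 3, against 0.48 to 0.996 for the other arrays, so the weighted fit leaned on 1 array per group. Members called numbered 2 in the report, 4 with array weights (Gclc, Gstm6, Gpx3 and Gstk1), and 0 to 3 when single arrays were left out; only without control 1 did any pass, and 9 to 15 members had an unadjusted p under 0.05. Without controls 2 and 3, which leaves 1 control assumed to vary like the mutants, limma called 0 genes, with 1542 genes and 10 members at an unadjusted p under 0.05, and 0 members. Members with groups that did not overlap numbered 17 in the report, 30 there and 18 to 27 without single arrays, since fewer arrays separate more easily. They numbered 18 with the normalisation repeated and 16 with arrays centred on their medians, where the groups overlapped for Gstp1. Pathway genes called were 0 in the report, 1 with the lowest 40% left out, 4 with array weights and 0 to 4 without single arrays. The median over the members stayed within the spread between arrays.

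With the replicate number as a block, limma called 0 of all genes and 0 members, with 1945 genes and 13 members at an unadjusted p under 0.05 (Gclc adjusted p = 0.161, Gstm6 0.242). The labels do not say that a number pairs samples, and deviations of same-numbered arrays correlated at 0.136, -0.091 and -0.040. With so few arrays these values cannot decide whether same-numbered samples were paired, and a shared batch was not tested.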

Other observations

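Rows that name several genes were outside the comparison and give the nearest view of Gsta1 and Gsta2, the alpha class transferases known as strongly inducible in liver. The 4 rows for Gsta1, Gsta2 and 2 predicted relatives averaged 8.81, 8.44 and 7.94 in the controls and 8.80, 9.88 and 8.62 in the mutants, so mutant 2 was the highest array and the others overlapped. The row differences were 0.68 to 0.74 log2 units, but the 4 rows read nearly alike and are no independent measurements. The 2 rows shared by Gstp1 and Gstp2 differed by -0.17 to -0.16, in the direction of the Gstp1 row.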
